A study of Mus musculus with 2 samples.

Results

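The 10 genes described here are the immediate early transcription factors and regulators Fos, Fosb, Jun, Junb, Egr1, Atf3 and Ier2 and the heat shock genes Hspa1a, Hspa1b and Dnajb1. They were chosen by name, as genes that can report handling and stress of cells, and all 10 were found among the 32285 genes of the deposited tables. The samples were subcutaneous Lewis lung carcinoma (LLC) tumors grown in C57BL/6 mice. LLC is a mouse lung carcinoma cell line that can be transplanted into this strain. There was 1 single-cell RNA-seq library from sGC Ctr mice (Gucy1b1 flox/flox) and 1 from sGC ∆PC mice (Cspg4-CreER T2::Gucy1b1 flox/flox), each made from cells pooled from 3 tumors. All mice of both groups carried the floxed Gucy1b1 alleles, which encode a subunit of soluble guanylate cyclase (sGC), the receptor for nitric oxide. Tamoxifen was given 5 times when the mice were 4 weeks old, and LLC cells were injected at 8 weeks of age and dissected 2 weeks later. Cspg4 (NG2) drives the Cre in pericytes but is not expressed in pericytes alone, and whether the sGC Ctr mice lacked any Cre was taken from their genotype label. The tumors were minced and digested for 30 min at 37 °C before the cells were loaded. With 1 library per condition there was no replicate, so no test between conditions was possible, intervals cover counting error only, and condition, library and handling cannot be told apart.

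Immediate early genes are transcribed within minutes of a stimulus without new protein synthesis, and growth factors, cytokines, calcium entry, adhesion and mechanical or enzymatic disturbance can all induce them. Fos and Fosb proteins pair with Jun or Junb to form AP-1, a dimeric transcription factor. Egr1 is a zinc-finger factor, Atf3 is a stress-responsive member of the ATF/CREB family, and Ier2 encodes a small nuclear protein. The heat shock response is a separate program in which the factor HSF1 is released from chaperones when unfolded proteins accumulate and binds heat shock elements of target promoters. Hspa1a and Hspa1b encode the inducible HSP70 chaperone, and Dnajb1 encodes its HSP40 partner, which passes substrates to HSP70 and stimulates its ATPase. Warm enzymatic dissociation of tissue is a known inducer of both programs, and the programs also run in living tumors.

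The promoters are shown for the members whose levels the results turn on: the nearly identical pair of HSP70 genes, their partner Dnajb1, Fos and Atf3, whose levels moved together over cell classes, and Fosb, the member that stood apart between the libraries. Each run is the 250 bases before the start of transcription, 5′ to 3′ on the gene's strand, from RefSeq (GRCm38.p6). Capitals mark matches to 5 short motifs, each searched on both strands. A heat shock element was searched in parts as GAANNTTC, held by 6.69% of 32851 promoter windows of the same length, and as TTCNNGAA, held by 7.17%. The core of a cAMP response element was searched as TGACGT, which 6.47% of the windows held. An AP-1 site was searched as TGANTCA (6.75% of the windows). A TATA box was searched as TATAAA (12.4% of the windows). A match is a description of letters and not a bound site, and the absence of a match says only that these letters are not in the window. RefSeq windows were matched for 8 of the 10 members. Dnajb1 has 2 start sites, of which the first is shown. The start sites are those of RefSeq, and the Atf3 window lies within the GENCODE bounds of that gene given below, not before them.
Hspa1a (chr17:34972157-34972406, minus strand): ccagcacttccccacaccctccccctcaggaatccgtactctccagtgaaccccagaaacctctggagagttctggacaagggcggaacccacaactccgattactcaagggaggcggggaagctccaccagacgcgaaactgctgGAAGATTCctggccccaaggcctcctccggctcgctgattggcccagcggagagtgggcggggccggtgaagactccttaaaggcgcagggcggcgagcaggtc
Hspa1b (chr17:34959239-34959488, minus strand): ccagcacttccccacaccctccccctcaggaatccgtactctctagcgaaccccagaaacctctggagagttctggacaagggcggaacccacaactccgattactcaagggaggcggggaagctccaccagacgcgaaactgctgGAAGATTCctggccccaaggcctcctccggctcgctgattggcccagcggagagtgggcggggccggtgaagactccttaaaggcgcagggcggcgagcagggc
Dnajb1 (chr8:83607925-83608174, plus strand): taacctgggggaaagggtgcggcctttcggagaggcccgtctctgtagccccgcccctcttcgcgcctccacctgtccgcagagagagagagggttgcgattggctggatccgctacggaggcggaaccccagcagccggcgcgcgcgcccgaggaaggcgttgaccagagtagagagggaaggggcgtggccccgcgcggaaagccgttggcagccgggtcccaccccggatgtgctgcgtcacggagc
Fos (chr12:85473640-85473889, plus strand): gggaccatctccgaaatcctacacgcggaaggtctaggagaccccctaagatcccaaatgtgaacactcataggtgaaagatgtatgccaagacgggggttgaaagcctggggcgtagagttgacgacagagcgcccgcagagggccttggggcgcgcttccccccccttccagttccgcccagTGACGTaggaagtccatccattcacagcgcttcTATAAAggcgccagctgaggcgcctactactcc
Atf3 (chr1:191183334-191183583, minus strand): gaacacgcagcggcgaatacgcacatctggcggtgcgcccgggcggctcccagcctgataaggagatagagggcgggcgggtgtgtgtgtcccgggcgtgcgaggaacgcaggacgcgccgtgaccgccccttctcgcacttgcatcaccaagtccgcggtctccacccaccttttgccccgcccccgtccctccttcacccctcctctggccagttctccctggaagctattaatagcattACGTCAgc
Fosb (chr7:19310046-19310295, minus strand): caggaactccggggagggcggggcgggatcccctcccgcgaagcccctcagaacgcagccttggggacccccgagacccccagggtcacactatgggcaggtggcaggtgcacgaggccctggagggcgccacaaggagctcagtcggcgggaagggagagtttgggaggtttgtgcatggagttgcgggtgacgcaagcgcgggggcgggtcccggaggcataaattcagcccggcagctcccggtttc
Both HSP70 promoters held GAANNTTC at 104 to 97 bases before the start. Their windows were identical at 247 of 250 positions (98.8%), and the substitutions, with positions counted from 1 at the 5′ end of the window and the Hspa1a base first, were C44T, T47C and T249G. Fos held TGACGT at 66 to 61 bases and TATAAA at 33 to 28 bases before the start, and Atf3 held TGACGT on the reverse strand at 8 to 3 bases before it. Of the windows not shown, Jun held GAANNTTC at 128 to 121 bases before the start and Junb held no match, as was true of Fosb and of both Dnajb1 windows.

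In GENCODE vM21 (GRCm38), the genes lie at chr12:85473890-85477273 on the plus strand (Fos, ENSMUSG00000021250), chr7:19302696-19310051 on the minus strand (Fosb, ENSMUSG00000003545), chr4:95049034-95052222 on the minus strand (Jun, ENSMUSG00000052684) and chr8:84974484-84978718 on the minus strand (Junb, ENSMUSG00000052837). Atf3 (ENSMUSG00000026628) lies at chr1:191170296-191218039 on the minus strand, Ier2 (ENSMUSG00000053560) at chr8:84661331-84662852 on the minus strand, and Egr1 (ENSMUSG00000038418) on chromosome 18. Hspa1a (ENSMUSG00000091971) at chr17:34969190-34972156 and Hspa1b (ENSMUSG00000090877) at chr17:34956436-34959238 are neighbours on the minus strand, and Dnajb1 (ENSMUSG00000005483) lies at chr8:83608193-83612653 on the plus strand. Jun overlaps Junos, Junb overlaps Prdx2, Atf3 overlaps Gm24748 and Hspa1a overlaps Gm20481, each on the opposite strand. The strand setting of the counting was not given in the sources used here, so whether reads of each overlapping pair were kept apart was not checked. Reads that fit Hspa1a and Hspa1b alike cannot be assigned, so the split between these copies is uncertain and their sum is also given.

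The sGC Ctr library held 15007 barcodes and 487859656 UMIs (unique molecular identifiers, counted molecules), and the sGC ∆PC library held 25631 barcodes and 436352742 UMIs. After filters on outlying barcodes and on a mitochondrial share of 10%, 12220 and 22498 cells were kept, with a median of 35776.5 and 8685 UMIs. Cells were placed in 9 classes by their own UMIs of marker lists that hold none of the 10 genes, and 10799 cells (88.4%) and 18081 cells (80.4%) fell in a class. Each name stands for a marker gate, so a class is a range and not a sharp type: doubling the cut-offs removed 2.56% to 53.8% of the cells of a class, most in monocytes and dendritic cells. The cell numbers, sGC Ctr first, were 7638 and 13788 for cancer cells, 2165 and 3065 for macrophages, 385 and 369 for monocytes, 64 and 78 for endothelial cells, 39 and 49 for pericytes, 101 and 240 for fibroblasts, 286 and 362 for granulocytes, 71 and 78 for T cells and 50 and 52 for dendritic cells. RNA of cancer cells, estimated from their markers, made up 5.6% to 15.0% of the UMIs of the other classes in sGC Ctr and 6.44% to 17.9% in sGC ∆PC, and its part in the levels below was not tested. Gucy1b1, the deleted gene, was counted 58 times in sGC Ctr pericytes and 14 times in sGC ∆PC pericytes, which is 123 and 38.1 per 1000000 UMIs.

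Levels are given as UMIs of the gene per 1000000 UMIs of the class (CPM), sGC Ctr first, and were compared for each gene across classes, not between genes. The immediate early genes summed to their highest level in granulocytes, at 8421 CPM (8197 to 8649, exact Poisson 95% interval) and 8919 CPM (8712 to 9129). Monocytes followed at 4483 and 4649 CPM. Cancer cells, at 1341 and 1548 CPM, and T cells, at 1385 and 1166 CPM, were lowest, so the classes spanned 6.28-fold and 7.65-fold. The heat shock sum was ordered differently. It was highest in pericytes of sGC Ctr (720 CPM) and in monocytes of sGC ∆PC (853 CPM). It was lowest in T cells of sGC Ctr (177 CPM) and in cancer cells of sGC ∆PC (186 CPM), a span of 4.07-fold and 4.60-fold. Median depth in sGC Ctr ran from 2066.5 UMIs (granulocytes) to 50525 UMIs (cancer cells), and its part in these spans was not tested. In cancer cells under 5000 UMIs, the immediate early sum was 3473 and 1916 CPM and the heat shock sum 698 and 333 CPM. From 40000 UMIs these sums were 1263 and 1602 CPM and 216 and 184 CPM.

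**Figure D1:**
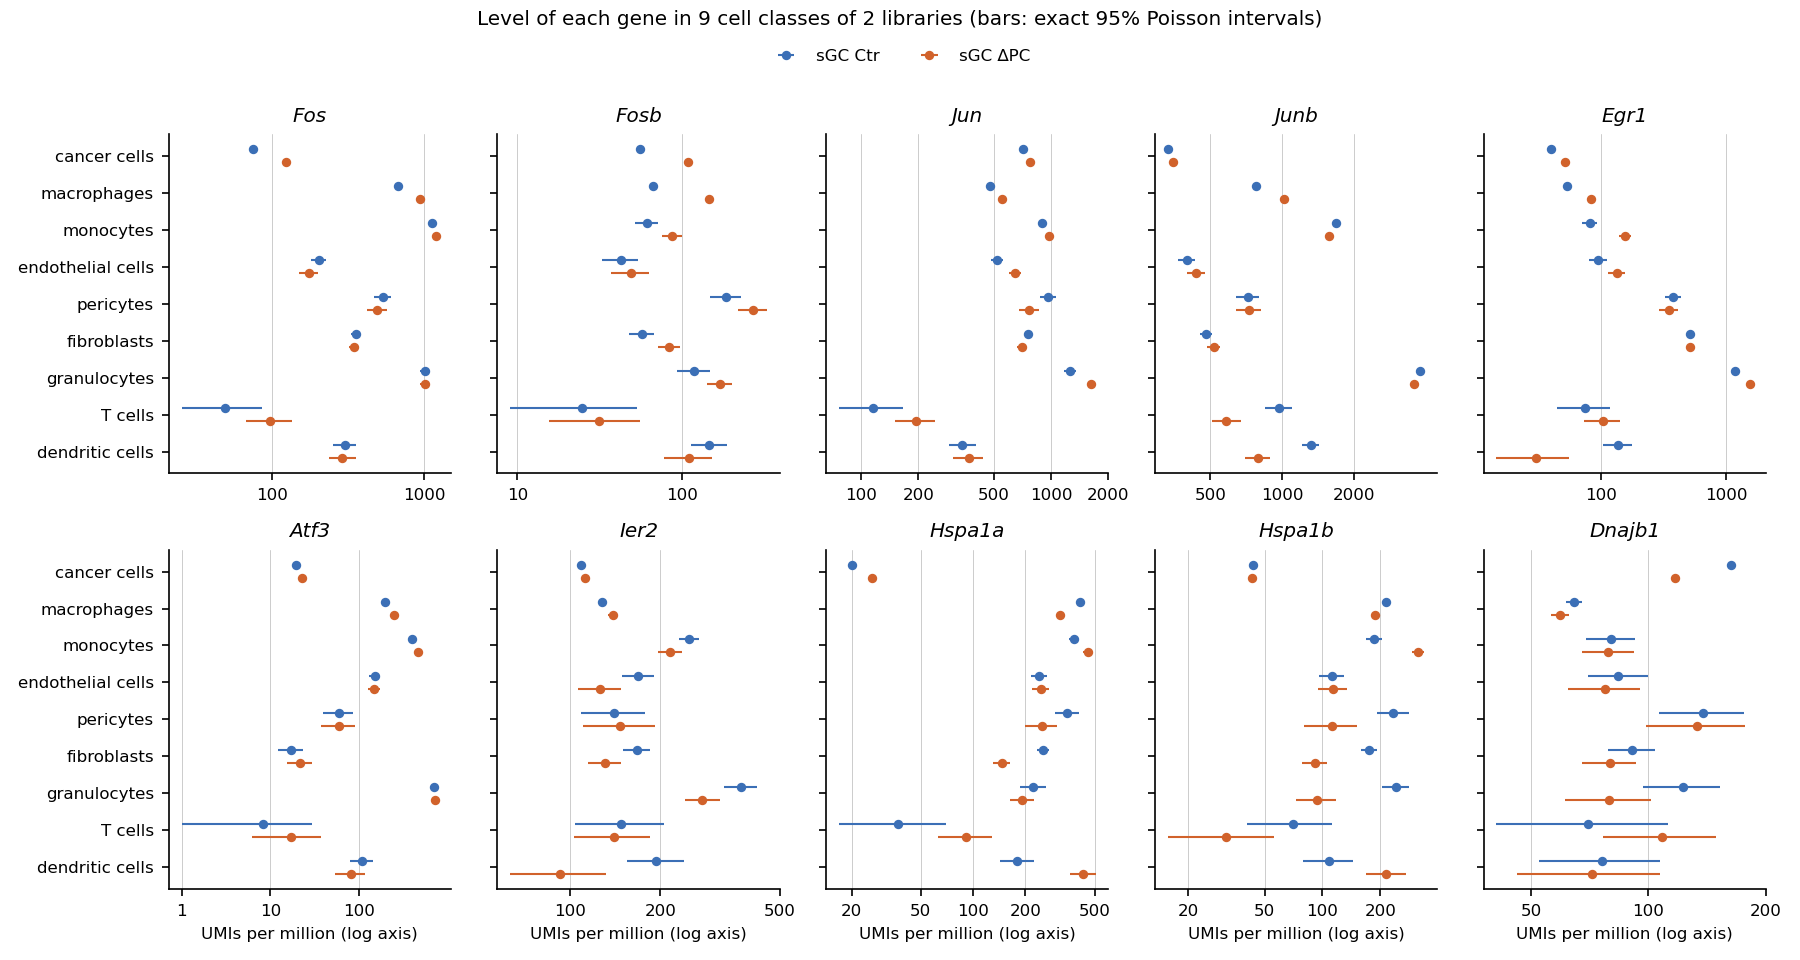
Level of each of the 10 genes in 9 cell classes, in CPM on a log axis, with 1 point per library and exact Poisson 95% intervals (counting error only). Of the 7 immediate early genes, 5 are highest in granulocytes in both libraries, Hspa1a and Hspa1b are lowest in cancer and T cells, and Dnajb1 varies least over classes.

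Fos, the AP-1 subunit most often used as a marker of recent stimulation, was high in myeloid cells and low in cancer and T cells. Its level was 1121 and 1186 CPM in monocytes, 1011 and 1008 CPM in granulocytes and 667 and 930 CPM in macrophages. It was 533 and 493 CPM in pericytes, 354 and 347 CPM in fibroblasts, 300 and 290 CPM in dendritic cells and 203 and 174 CPM in endothelial cells. Cancer cells had 75.4 and 123 CPM. T cells held 12 and 34 UMIs, which is 49.3 and 97.0 CPM. The order of the 9 classes was the same in both libraries. Intervals overlapped between fibroblasts and dendritic cells and between cancer cells and T cells in both, and between granulocytes and their neighbour above in sGC Ctr and below in sGC ∆PC.

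Fosb, whose full-length protein is a close relative of Fos, had another order. Pericytes were highest, with 88 and 100 UMIs (187 and 272 CPM), followed by dendritic cells at 148 CPM in sGC Ctr and granulocytes at 170 CPM in sGC ∆PC. The Fosb intervals of pericytes (150 to 230 CPM) and dendritic cells (114 to 189 CPM) overlapped in sGC Ctr, and those of pericytes (221 to 331 CPM) and granulocytes (143 to 201 CPM) did not in sGC ∆PC. In sGC ∆PC the top 10% of the 49 pericytes held 64% of their Fosb UMIs. With all cells weighted alike, Fosb there was 196 CPM in pericytes and 166 CPM in granulocytes. Macrophages, with 66.5 and 148 CPM, and cancer cells, with 56.0 and 110 CPM, differed most between the libraries as a ratio. The remaining classes lay between 24.7 CPM (T cells, 6 UMIs) and 119 CPM (granulocytes) in sGC Ctr and between 31.4 CPM (T cells, 11 UMIs) and 111 CPM (dendritic cells) in sGC ∆PC. Fosb was detected in 58.8% and 54.3% of cancer cells, and the 10% of them with most Fosb UMIs held 56.3% and 65.6% of those UMIs. This was not particular to Fosb: the same share was 58.2% and 55.7% for Fos and 76.5% and 67.7% for Atf3. For Jun it was 29.3% and 48.2%. Cells were ranked by raw UMIs, and the part of depth in these shares was not tested.

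Jun and Junb, the partners of Fos in AP-1, were detected in every class. Jun was highest in granulocytes, at 1263 and 1627 CPM, and lowest in T cells, at 115 and 194 CPM, from 28 and 68 UMIs. Cancer cells stood near the middle with 708 and 780 CPM. Granulocytes led for Junb as well, with 3783 CPM (3634 to 3937) and 3555 CPM (3425 to 3688), against 1680 and 1569 CPM in monocytes. At an equal depth of 2000 UMIs per cell, 94.2% and 97.6% of granulocytes held a Junb UMI (95.5% and 91.2% at their own depth). Junb was lowest in cancer cells, at 334 and 350 CPM. T cells, the lowest class for Fos, Fosb, Jun and Atf3, held 966 and 585 CPM of Junb and were not at the bottom of its order in either library.

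Egr1 separated granulocytes and stromal cells from the rest. Granulocytes had 1181 and 1565 CPM, fibroblasts 516 and 511 CPM and pericytes 376 and 348 CPM of Egr1. No other class exceeded 136 CPM in sGC Ctr or 154 CPM in sGC ∆PC. These 3 classes held the same places in both libraries and none of their intervals overlapped. Macrophages, high in Fos, had only 52.5 and 82.3 CPM of Egr1, and fibroblasts, high in Egr1, had 17.2 and 21.6 CPM of Atf3.

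Atf3, a factor that dampens inflammatory gene expression in myeloid cells, spanned a wide range. Granulocytes had 693 and 719 CPM, monocytes 397 and 458 CPM, macrophages 197 and 247 CPM and endothelial cells 150 and 148 CPM of Atf3. Cancer cells had 19.3 and 22.6 CPM, and T cells held 2 and 6 UMIs, which is 8.22 CPM (0.996 to 29.7) and 17.1 CPM (6.28 to 37.2). The order of the 9 classes for Atf3 was identical in both libraries. Ier2 varied least of the immediate early genes, 3.41-fold and 2.98-fold, from 371 and 276 CPM in granulocytes to 109 CPM in cancer cells of sGC Ctr and 92.7 CPM in dendritic cells of sGC ∆PC. Below monocytes, each class overlapped its neighbour in the Ier2 order of sGC ∆PC.

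Summed over cells of all depths, the HSP70 genes were low in cancer and T cells and higher in every other class. Shallow cancer cells had more: under 5000 UMIs, Hspa1a was 242 CPM in sGC Ctr (190 cells) and 117 CPM in sGC ∆PC (1787 cells). Hspa1a had 8475 and 9332 UMIs in cancer cells, or 20 and 26.1 CPM, and 37.0 and 91.3 CPM in T cells, from 9 and 32 UMIs. In the other classes Hspa1a lay between 180 and 412 CPM in sGC Ctr and between 146 and 459 CPM in sGC ∆PC. Macrophages led in sGC Ctr (412 CPM, 405 to 420) and monocytes (459 CPM, 431 to 488) and dendritic cells (431 CPM, 363 to 507) led in sGC ∆PC. Hspa1b had 43.7 and 42.7 CPM in cancer cells, against 213 and 189 CPM in macrophages and 185 and 315 CPM in monocytes, and in sGC Ctr its T-cell interval overlapped that of dendritic cells. Taken as a sum, HSP70 was 9.82-fold higher in macrophages than in cancer cells of sGC Ctr (626 and 63.7 CPM) and 11.2-fold higher in monocytes than in cancer cells of sGC ∆PC (774 and 68.8 CPM). In granulocytes 15.4% and 15.2% of cells held an Hspa1a UMI at their own depth, against 95.5% and 91.2% for Junb. The top 10% held 89.4% and 87.5% of the 141 and 152 Hspa1a UMIs. They held 25.4% and 31.1% of the 2409 and 2819 Junb UMIs. Such shares depend on the number of counts, so these genes are not compared by them.

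Dnajb1, the co-chaperone, did not follow HSP70. Its level was 162 and 117 CPM in cancer cells and 138 and 133 CPM in pericytes, the top classes, and 64.5 and 59.2 CPM in macrophages, the lowest. The span was 2.52-fold and 2.25-fold, the smallest of the 10 genes in each library, and every class overlapped its neighbour in the order. Cancer cells thus held the lowest HSP70 sum and the highest or next to highest Dnajb1 level.

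Over the 18 points of 9 classes in 2 libraries, levels on the log2(CPM + 1) scale varied together within some pairs. The points share library, depth and free RNA, so these coefficients are descriptions. Pearson's r was 0.85 for Hspa1a with Hspa1b, whose reads may be shared, 0.83 for Junb with Ier2 and 0.82 for Fos with Atf3. Fos had an r of 0.78 with Hspa1a, whereas Dnajb1 had an r of -0.43 with Hspa1a. Fosb was not close to any member, with r of at most 0.60 (Fos). Outside the 10 genes, the patterns most like the immediate early sum among 14990 genes were those of Gla (0.952), Socs3 (0.947), Hilpda (0.944), Msrb1 (0.930) and Tiparp (0.930). Those most like the heat shock sum were Tcn2 (0.876), Arf2 (0.866), Ccdc71l (0.859), Ifnar2 (0.851) and Ehd1 (0.839).

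Thinning to 2000 UMIs left out the shallower cells, 21 of 2165 macrophages in sGC Ctr and 906 of 3065 in sGC ∆PC. Within macrophages thinned to 2000 UMIs, cells with a Fos UMI held a Fosb UMI in 17.1% of cases in sGC Ctr and 27.2% in sGC ∆PC, against 5.30% and 10.9% of cells without Fos. Unthinned, the shares were 40.9% and 52.0%, against 17.2% and 13.8%. Cells with an Hspa1a UMI held an Hspa1b UMI in 46.5% and 38.8% of cases, against 13.3% and 12% of cells without (unthinned 71.2% and 56.1%, against 25.1% and 15.5%). By contrast, Hspa1b was found in 26.0% and 20.6% of the thinned macrophages with Fos and in 25% and 20.7% of those without (unthinned 55.9% and 39.5%, against 53.6% and 20.5%). No class is known to lack these genes, so no background share of cells could be set.

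Between the libraries, the question was whether the genes that report handling and stress moved with the deletion of sGC in pericytes. For the immediate early sum, the median over the 9 classes of the log2 ratio, with sGC ∆PC over sGC Ctr, was 0.05, and classes ran from -0.53 (dendritic cells) to 0.40 (macrophages). This median was -0.042 in cells thinned to equal depth and 0.41 over the 4 classes that Leiden clusters gave in both libraries. Macrophages were among these 4 classes, and a Leiden cluster was named monocytes in sGC Ctr alone. The heat shock sum had a median of -0.28, which was 0.023 without Dnajb1, for the HSP70 sum alone. Behind these medians the direction differed by class and gene. The median log2 ratio of all genes tested in a class lay between -0.09 and 0.01, so no class was shifted as a whole by more than 0.1. Genes with at least 50 UMIs over both libraries were compared against a fixed 2-fold limit.

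**Figure D2:**
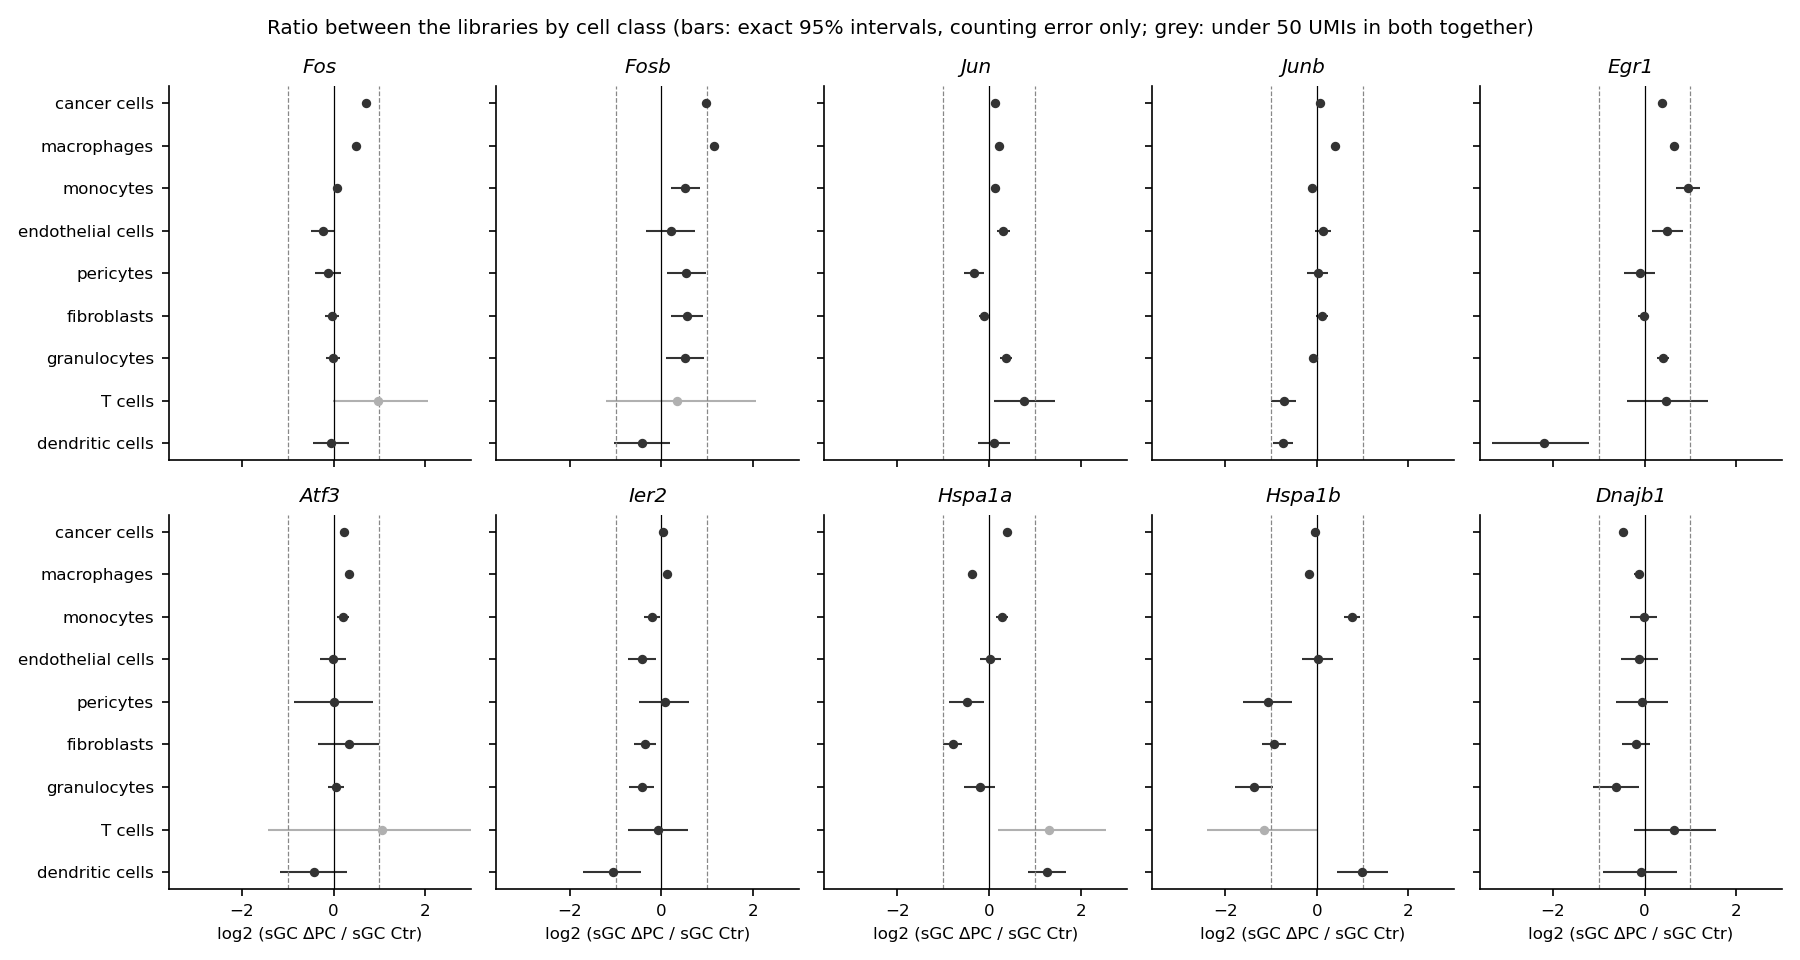
Log2 of the level in sGC ∆PC over that in sGC Ctr for each gene and class, with exact 95% intervals (counting error only), grey where a gene had under 50 UMIs in a class over both libraries. Dashed lines mark 2-fold, and the Atf3 interval of T cells runs past the axis. Fosb is above 0 in 8 of 9 classes (T cells, in grey, among them) and Dnajb1 below 0 in 8 of 9, and dendritic cells hold both the lowest Egr1 and a high Hspa1a ratio.

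In cancer cells, 8 of the 10 genes were higher in sGC ∆PC and 2 lower, none past 2-fold, where 4.46% of all 15429 genes passed it in either direction and 4.32% were higher past it. Of all genes, 51.7% were higher by any amount. All 7 immediate early genes were higher over all cancer cells, though not at every depth (given with the depth ranges). The log2 ratio was 0.97 (0.95 to 1.00) for Fosb, 0.71 for Fos and 0.37 for Egr1. It was 0.23 for Atf3, 0.14 for Jun, 0.07 for Junb and 0.04 for Ier2. Dnajb1 was lower, with a log2 ratio of -0.47, as was Hspa1b by little, at -0.03. Hspa1a was higher, at 0.38, though not at every depth. In macrophages, 1 of the 10 genes passed 2-fold, namely Fosb, with a log2 ratio of 1.15 (1.07 to 1.24) from 1765 and 3506 UMIs. The background there was 1.37% of 11798 genes in either direction and 1.03% higher. The other 6 immediate early genes were higher by 0.11 (Ier2) to 0.65 (Egr1) over all macrophages, though not in those of low depth (given with the depth ranges), and all 3 heat shock genes were lower, with log2 ratios from -0.12 (Dnajb1) to -0.38 (Hspa1a). Of these small ratios, Jun (-0.12 to 0.16) and Hspa1b (-0.15 to 0.0086) in cancer cells and Hspa1b (-0.33 to 0.17) and Dnajb1 (-0.26 to 0.02) in macrophages changed sign over the alternative filters, gates and clusters. Median depth per cell differed between the libraries in the same classes, 50525 and 13187.5 UMIs in cancer cells and 11315 and 4989 UMIs in macrophages.

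Monocytes, at a median of 6164 and 6281 UMIs, and granulocytes, at 2066.5 and 2189.5 UMIs, were nearly equal in median depth. Under 2000 UMIs lay 1 of 385 monocytes in sGC Ctr and 64 of 369 in sGC ∆PC, and 132 and 157 granulocytes. In monocytes no member passed 2-fold (0.68% of all genes did). Egr1 came nearest, at 80.2 and 154 CPM (log2 ratio 0.94, interval 0.68 to 1.2), followed by Hspa1b at 0.77 and Fosb at 0.52 (0.21 to 0.84). Fos, which peaked in this class, had a ratio of 0.08. In granulocytes, 1 member passed 2-fold, against 3.24% of all genes in either direction and 1.82% lower. This was Hspa1b, with 154 and 74 UMIs (242 and 93.3 CPM) and a ratio on the log2 scale of -1.37 (-1.79 to -0.96). At their own depth 18.9% and 13.0% of granulocytes held an Hspa1b UMI, so that ratio rests on few cells. The top 10% of granulocytes held 83.8% and 85.1% of those UMIs, a share that is high for any gene detected in few cells. By Leiden clusters it was -0.92, short of 2-fold. Hspa1a, its near-identical copy, was 221 and 192 CPM there, and their sum had a ratio of -0.70. Fosb (0.51), Egr1 (0.41) and Jun (0.37) were higher in granulocytes of sGC ∆PC, and Fos was level at -0.01.

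In pericytes and fibroblasts, the HSP70 genes were lower in sGC ∆PC while Fosb was higher, at 0.54 (0.11 to 0.97) and 0.56 (0.22 to 0.90). Over the alternative filters and gates these Fosb ratios ran from 0.09 to 0.67 and from 0.14 to 1.36. With all cells weighted alike, Fosb was level in pericytes (198 and 196 CPM) and higher in fibroblasts of sGC ∆PC (61.4 and 91.1 CPM). The top 10% of cells held 44.3% and 64.0% of the Fosb UMIs in pericytes and 56.2% and 72.0% in fibroblasts. In pericytes, 1 member passed 2-fold, against 2.94% of all genes in either direction and 1.71% lower. It was again Hspa1b, with 110 UMIs in 39 cells of sGC Ctr and 41 UMIs in 49 cells of sGC ∆PC, a log2 ratio of -1.07 (-1.62 to -0.54). The Hspa1b ratio was -0.97 relative to the median gene and -0.86 in cells with under 25% cancer RNA, so the 2-fold limit was not passed there. Hspa1a had 164 and 91 UMIs over all pericytes, a ratio of -0.49. The sum of both copies was 582 and 359 CPM, with a ratio of -0.70 (-1.01 to -0.39). Pericytes differed in depth, 10813 and 5070 UMIs, and in the estimated share of cancer RNA, 5.6% and 13.8%, and the part of either was not tested. Fibroblasts had no member past 2-fold (background 2.53% in either direction and 1.4% lower). Hspa1b was at -0.94 there and Hspa1a at -0.79 (-1.0 to -0.58), from 572 and 284 Hspa1a UMIs. Fibroblasts differed in median depth as well, 20040 and 2692 UMIs, and in the estimated share of cancer RNA, 5.63% and 11.0%. Under 2000 UMIs lay 3 of 101 fibroblasts in sGC Ctr and 87 of 240 in sGC ∆PC. Doubled cut-offs removed 9.90% and 39.6% of them, and the part of these differences was not tested. The immediate early sum of fibroblasts was 2350 and 2313 CPM and that of pericytes 2978 and 2811 CPM, log2 ratios of -0.02 and -0.08. Endothelial cells had no member past 2-fold either (background 1.53%), and their heat shock sums were 436 and 435 CPM.

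T cells held at least 50 UMIs of only 5 members, none past 2-fold (background 2.07%), of which Junb, at 235 and 205 UMIs, had a ratio of -0.72 and Jun one of 0.75 (0.10 to 1.44). Fos, Fosb, Atf3, Hspa1a and Hspa1b fell under that limit in T cells. Dendritic cells, with 50 and 52 cells, had 3 members past 2-fold, against 3.43% of all genes in either direction. Egr1 was counted 59 times in sGC Ctr cells and 10 times in sGC ∆PC cells, for a ratio of -2.19 on the log2 scale (-3.32 to -1.21), and Ier2 had 84 and 31, a ratio of -1.06 (-1.71 to -0.45), where 2.09% of all genes were lower past 2-fold. The Ier2 ratio was -0.81 at a 5% mitochondrial limit and -0.90 in cells with under 25% cancer RNA, which ends its 2-fold call. Hspa1a had 78 and 144 UMIs, a ratio of 1.26 (0.85 to 1.67), where 1.34% were higher past it. The top 10% of dendritic cells held most of the Egr1 counts, 84.7% and 80.0%, shares that are partly set by how few the counts were (59 and 10). The doubled marker cut-offs removed 46.0% and 53.8% of the dendritic cells.

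Seen by gene, Fosb was higher in sGC ∆PC in 8 of 9 classes, with the interval above 0 in 6, and lower only in dendritic cells. T cells, with 6 and 11 Fosb UMIs and so under the limit of 50, were among the 8. In single classes, 39.3% (macrophages) to 51.7% (cancer cells) of all genes were higher. Dnajb1 was lower in 8 of 9 classes, with the interval below 0 in 3, namely cancer cells, granulocytes and macrophages, and relative to the median gene it was lower in 7 of 9. Its sign held under every alternative in cancer cells, granulocytes and dendritic cells, and turned under at least 1 of them in macrophages, monocytes, endothelial cells, fibroblasts and pericytes. Fos, which shared the class order of both libraries, was higher in 4 and lower in 5, with T cells (12 and 34 UMIs, under the same limit) among the 4. Over 6 alternative filters and gates and a scaling by the median gene, the Fosb ratio stayed between 0.61 and 0.97 in cancer cells. In macrophages it stayed between 0.99 and 1.21 (the lower end, in thinned cells, is just short of 2-fold). The Fosb ratio ran from 0.19 to 1.17 in endothelial cells. In dendritic cells it ran from -0.42 to 0.07, with the sign turned in thinned cells. The Dnajb1 ratio in cancer cells stayed between -0.63 and -0.44. Clustering of each library by itself gave 3 macrophage clusters in each, with Fosb at 35.7 to 97.9 CPM in sGC Ctr and 101 to 158 CPM in sGC ∆PC. Only sGC Ctr had a cluster named monocytes (822 cells, Fosb 88.4 CPM), so the macrophage clusters may not hold like cells in both libraries. Cancer-cell clusters overlapped, with 8 at 37.4 to 371 CPM and 13 at 44.9 to 332 CPM of Fosb. The cancer cluster of sGC Ctr with the most Fosb had 234 cells at a median of 1667 UMIs, and that of sGC ∆PC 145 cells at 2371 UMIs.

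Because the libraries differed in depth, the ratios were also taken within ranges of UMIs per cell, a choice made after the data were seen. In cancer cells, Fosb changed direction over this range. Its log2 ratio was -1.16 under 5000 UMIs (190 and 1787 cells), -0.18 (-0.56 to 0.23) from 5000 to 10000 UMIs (80 and 3662 cells), 0.70 from 10000 to 20000, 0.61 from 20000 to 40000 (1830 and 1902 cells) and 1.18 from 40000 UMIs (5334 and 3285 cells). Dnajb1 was lower in sGC ∆PC in all 5 ranges, with ratios of -0.36 to -0.77. From the lowest range to the highest, Hspa1a had ratios of -1.05, -2.26, 0.64, 0.43 and 0.04. Those of Hspa1b were -1.29, -1.88, -0.34, -0.53 and 0.06. The heat shock sum was lower in all 5 ranges, at -1.07, -1.42, -0.47, -0.59 and -0.23. The immediate early sum had ratios of -0.86, -0.22, 0.01, -0.22 and 0.34 from the lowest range to the highest. Its sign in cancer cells thus differed between ranges of depth. From 20000 to 40000 UMIs, Jun (-0.32), Junb (-0.29), Egr1 (-0.31) and Ier2 (-0.47) were lower, while Fos (0.47) and Atf3 (0.55) were higher, as was Fosb.

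In macrophages, Fosb was 0.36 (-0.06 to 0.81) under 5000 UMIs (140 and 1534 cells) and 1.15, 1.26 and 1.23 in the ranges from 5000, 10000 and 20000 UMIs. The immediate early sum was lower in sGC ∆PC in the lowest range, at -0.65, and higher in the deeper ranges, at 0.31, 0.55 and 0.59. In the lowest range Fos had a ratio of -0.49, Jun of -1.02, Junb of -0.53 and Atf3 of -1.11, so the direction of these genes in macrophages turned with depth. Hspa1a had another pattern. In sGC Ctr it was 993, 615, 393 and 213 CPM from the lowest range to the highest, while in sGC ∆PC it was 266, 459, 315 and 258 CPM. Its log2 ratio was -1.90 in the lowest range and 0.28 from 20000 UMIs. The lower Hspa1a level of sGC ∆PC macrophages was therefore found under 20000 UMIs and not above.

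**Figure D3:**
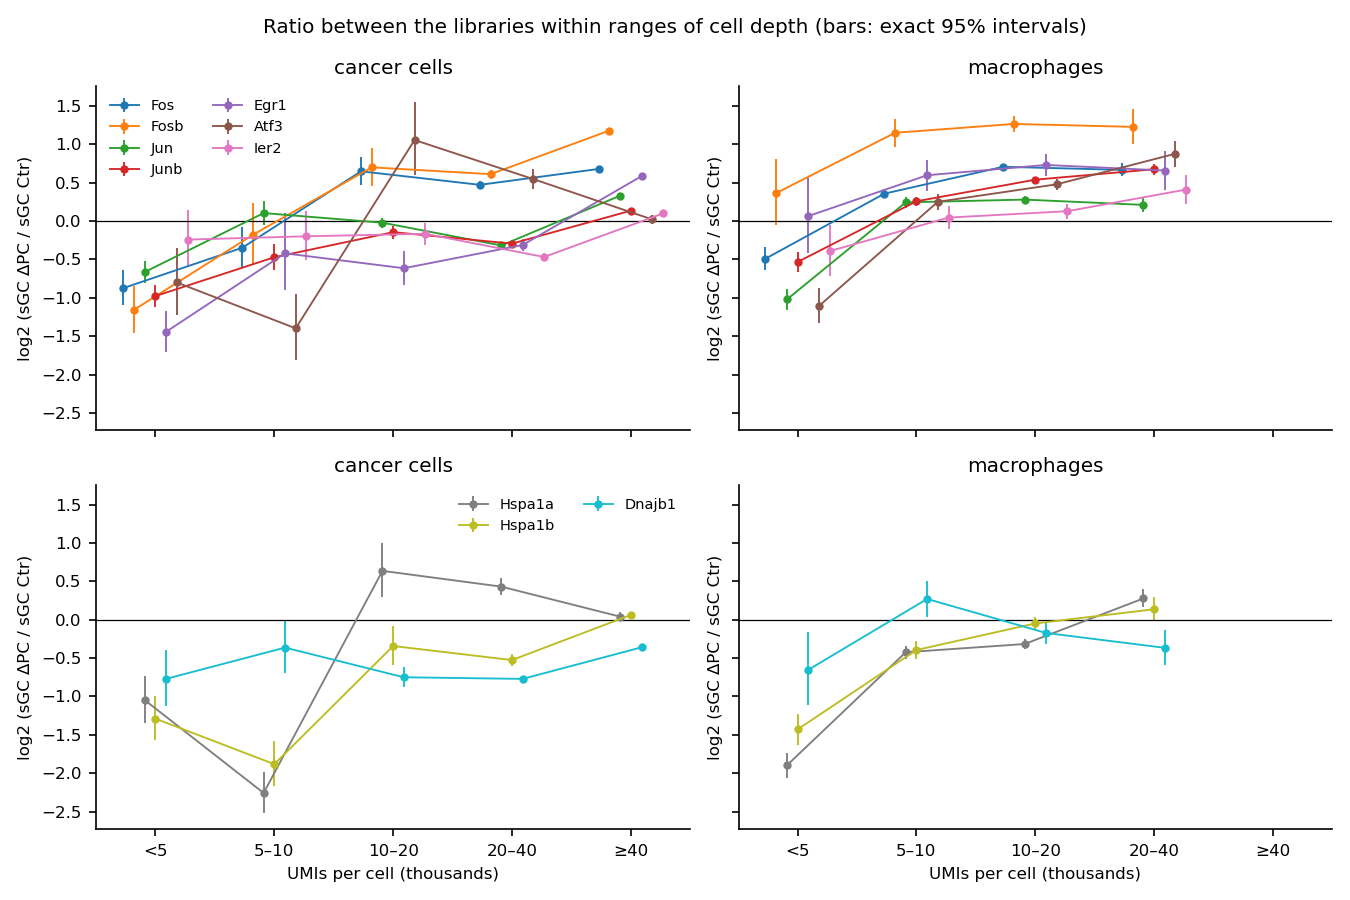
Log2 ratio (sGC ∆PC over sGC Ctr) within ranges of UMIs per cell, for each gene in cancer cells (5 ranges) and macrophages (4 ranges), with exact 95% intervals (counting error only). Fosb is above 0 in the deeper ranges of both classes, Dnajb1 is below 0 in all 5 ranges of cancer cells, and Hspa1a of macrophages runs from -1.90 to 0.28.

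A high mitochondrial share of UMIs is commonly read as damage to a cell. In each library 12.3% and 12.2% of barcodes held at least 10% mitochondrial UMIs, and these were left out above. Fosb, Hspa1b, Hspa1a and Egr1 were higher in them, but so were most genes. Per UMIs of nuclear genes, 80.1% and 75.9% of all genes were higher, with median log2 ratios of 0.92 and 0.39. All 10 members were higher on that scale. Of these, 4 in sGC Ctr and 5 in sGC ∆PC lay above the median gene, with Fosb, Hspa1b, Hspa1a and Egr1 among them in both. Fosb had 178 CPM at or above the limit and 57.5 CPM below it in sGC Ctr, and 227 and 112 CPM in sGC ∆PC, log2 ratios of 1.63 and 1.02. Also in CPM, Hspa1b had log2 ratios of 1.91 and 1.12, Hspa1a of 1.43 and 0.57 and Egr1 of 0.98 and 0.33. Per UMIs of nuclear genes, the scale of the medians above, Fosb had 2.00 and 1.25 and Hspa1b 2.28 and 1.34. On that scale Hspa1a had 1.81 and 0.79 and Egr1 1.35 and 0.55. In CPM, Fos was at 0.13 and -0.18 (nuclear scale 0.50 and 0.04) and Ier2 at 0.18 and 0.01 over all barcodes. Within macrophages Fos was lower at or above the limit, at -1.06 and -0.96 in CPM. The immediate early sum had ratios of 0.38 and 0.15 and the heat shock sum of 1.02 and 0.54, again in CPM. Taken relative to the median gene, which itself differed between these barcodes, the mean ratio of the libraries was -0.09 for the immediate early sum and 0.42 for the heat shock sum, so the direction of the former flips with this scaling.

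The makeup of cells also changes with the mitochondrial share, so the levels were also taken within barcodes that passed the cancer gate, per 1000000 UMIs of nuclear genes, another choice made after the data were seen. From a share of 2% to 5% (4430 and 6767 barcodes) to one of 20% to 50% (525 and 629 barcodes), all 10 genes were higher in both libraries, as were 77.5% of 13620 and 77.2% of 13121 nuclear genes. The median member was higher by 1.21 and 1.02 on the log2 scale, against 1.15 and 0.92 for the median gene, and 6 of the 10 lay above that median in each library, with Fos, Atf3, Ier2 and Dnajb1 below it. Fosb went from 48.1 to 378 in sGC Ctr and from 90.1 to 657 in sGC ∆PC, and Hspa1b from 42.7 to 323 and from 38.5 to 253. Jun, high in cancer cells throughout, went from 681 to 1626 and from 736 to 1621. Fos and Atf3 differed less, with Fos going from 76.6 to 125 and from 135 to 197, and Atf3 from 21.5 to 43.0 and from 26.8 to 32.9. Median depth over the same step fell from 51708 to 6551 UMIs in sGC Ctr and from 10962 to 6798 UMIs in sGC ∆PC, and its part was not tested. In macrophages at or above the 10% limit, the immediate early sum had log2 ratios of -0.11 and -0.06 on the same nuclear scale (-0.30 and -0.24 in CPM), and the heat shock sum of 0.82 and 0.49 (0.63 and 0.30 in CPM).

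**Figure D4:**
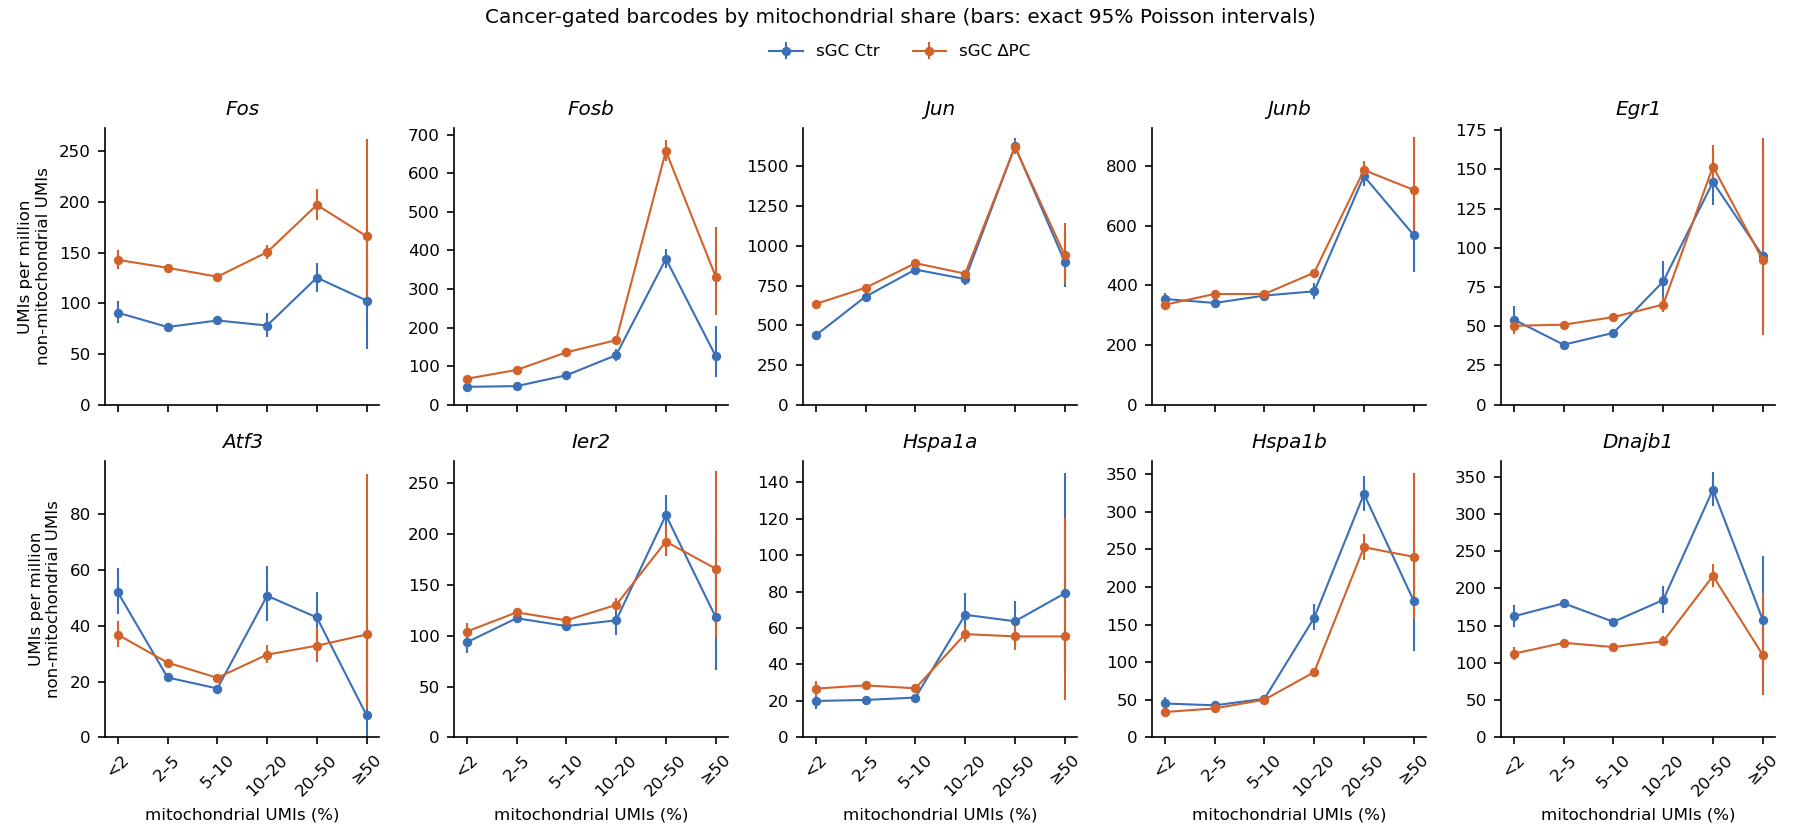
Level of the 10 genes in barcodes of the cancer gate by mitochondrial share of UMIs, per 1000000 nuclear-gene UMIs on axes that start at 0, with 1 line per library and exact Poisson 95% intervals. Between the 2% to 5% and the 20% to 50% ranges, Fosb and Hspa1b differ most, Fos least in sGC Ctr and Atf3 least in sGC ∆PC.

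Other genes of both programs were read from 2 lists. Their ratios were not taken within ranges of depth. Under 5000 UMIs the immediate early sum of the members was lower in sGC ∆PC, with log2 ratios of -0.65 in macrophages and -0.86 in cancer cells. In the deepest range of each class it was higher, at 0.59 and 0.34. Of 26 further immediate early genes, 25 were tested in macrophages and all 25 were higher in sGC ∆PC, none past 2-fold, with a median log2 ratio of 0.36, where 39.3% of all genes were higher. In cancer cells 24 of 26 were higher (median 0.25, with 51.7% of all genes higher), and Dusp1 (1.10), a phosphatase of MAP kinases, and Ccn2 (1.01, from 81 and 138 UMIs) passed 2-fold. In dendritic cells 13 of 15 were lower (median -0.67, with 43.5% of all genes higher), the direction of Egr1 and Ier2 there, and 5 passed 2-fold, namely Nr4a1, Dusp1, Klf4, Socs3 and Nfkbia. These 7 values past 2-fold were picked out after they were seen. In cancer cells 4.32% of all genes were higher past 2-fold, and in dendritic cells 2.09% were lower past it. Genes of this list also passed 2-fold in endothelial cells (2 higher), pericytes (1 higher, 1 lower) and fibroblasts (2 higher, 1 lower). The same was true of granulocytes (1 higher, 1 lower) and T cells (1 higher, 2 lower). In the same order, 1.53%, 2.94%, 2.53%, 3.24% and 2.07% of all genes passed it. Monocytes (10 of 22 higher) and granulocytes (11 of 20 higher) were split, with medians of -0.04 and 0.01, beside 48.1% and 49.9% of all genes higher. Of the remaining classes, endothelial cells had 15 of 19 higher (median 0.38), fibroblasts 14 of 25 (0.14), pericytes 6 of 16 (-0.17) and T cells 4 of 11 (-0.17), where 49.2%, 41.9%, 40.2% and 39.8% of all genes were higher. The genes of this list with the largest medians over classes were Egr2, a relative of Egr1 (0.55, higher in 3 of 4 classes), Klf4, a zinc-finger factor (0.55, higher in 5 of 7), and Ptgs2, the inducible cyclooxygenase (0.43, higher in 4 of 5). Klf4 ran from -1.10 in dendritic cells to 2.11 in granulocytes, the latter from 8 and 43 UMIs.

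The 18 further heat shock genes and chaperones shared the direction of the HSP70 sum in some classes only. Their median log2 ratio lay between -0.13 (dendritic cells) and 0.26 (granulocytes) in all 9 classes. Its sign was opposite to that of the HSP70 sum in cancer cells, pericytes, fibroblasts, granulocytes and dendritic cells. It was the same in macrophages (-0.05), monocytes (0.11), endothelial cells (0.25) and T cells (0.02). In macrophages 13 of 18 were lower and in monocytes 10 of 15 higher, where 39.3% and 48.1% of all genes were higher. In pericytes 1 passed 2-fold and in fibroblasts 1, lower in both, where 1.71% and 1.4% of all genes were lower past it. In both it was Hspb1, the small heat shock protein HSP27, with 180 and 40 UMIs in pericytes (-1.81) and 155 and 51 UMIs in fibroblasts (-1.38), the classes in which Hspa1b was also lower. Cryab, another small heat shock protein, had a median of -0.47 over 4 classes, and Hspd1, the mitochondrial chaperonin, was higher in 8 of 9 classes with a median of 0.26. In cancer cells, where Dnajb1 was lower, 12 of the 18 were lower as well, at a median of -0.07, with 51.7% of all genes higher.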

How the data were processed

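Cells of subcutaneous LLC tumors were profiled with 10x Genomics 3′ chemistry in 2 libraries, 1 per genotype. According to the submitters' processing notes the reads were processed with Cell Ranger 6.1.1 on mm10. The deposited matrices hold raw UMI counts per gene and barcode as the authors' pipeline wrote them, filtered to called cells and not normalized. From these counts, barcodes past 3 median absolute deviations in UMIs or genes, or at or above 10% mitochondrial UMIs, were removed. A cell entered a class when at least 2 markers of that class were detected and their summed UMIs passed a cut-off per 10000 UMIs. The cut-offs were set after the counts were seen. Cells passing several gates (373 in sGC Ctr and 1452 in sGC ∆PC) were set aside as mixed, which stood in for a doublet caller, and 1019 and 2943 cells passed no gate. NK cells, B cells and erythroid cells fell under the limit of 30 cells and were not compared. The libraries shared 131 barcode sequences (0.873% and 0.511% of each). UMIs were summed per class and library and divided by all UMIs of the class. Levels carry exact Poisson and ratios exact conditional 95% intervals, which cover counting error only. With 1 library per condition no test was run and no p-value is given. Called means past 2-fold, for genes whose UMIs over both libraries came to 50 or more, with 0.5 counts added for the background counts over all genes. Shares of cells were taken after thinning each cell to 2000 UMIs, leaving out 547 and 3928 shallower cells, unless given as unthinned or at the cells' own depth.

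All 10 genes are named. Of the 2 further lists, the 3 genes with the largest median ratio over classes are named, and for likeness the 5 genes with the highest r with each sum. The genes and lists were chosen with earlier results of these data known. Alternatives were a mitochondrial limit of 5%, no median-deviation filter, doubled cut-offs, thinning, a limit of 25% on cancer RNA, Leiden clusters (3000 genes, 20 components, 15 neighbours, resolution 1.0), and scaling by the median gene. Ranges of depth and of mitochondrial share were added after the data were seen. The scripts were tested on simulated data. Python 3.11.15, numpy 2.4.6, scipy 1.17.1, pandas 2.3.3, scikit-learn 1.9.0 and leidenalg 0.10.2 were used.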

Additional observations from a re-analysis of the deposited data

Results flagged for a closer look

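Members whose ratio between the libraries pointed in opposite directions in 2 classes, by at least 0.5 on the log2 scale in each and with both intervals clear of 0, are listed here. No replicate exists, so the difference between the classes was not tested. Egr1 had a log2 ratio (sGC ∆PC over sGC Ctr) of 0.94 in monocytes and -2.19 in dendritic cells. Hspa1a had a ratio of 1.26 in dendritic cells and -0.79 in fibroblasts. Hspa1b had a ratio of 0.99 in dendritic cells and -1.37 in granulocytes. Dendritic cells enter all 3 pairs as listed. They held 50 and 52 cells, of which 46.0% and 53.8% were lost at doubled marker cut-offs. Hspa1b met the same rule without dendritic cells, with a ratio of 0.77 (0.59 to 0.94) in monocytes against -1.37 in granulocytes. Under the alternatives that could be computed the Egr1 ratio of dendritic cells stayed between -2.66 and -2.02 and that of monocytes between 0.51 and 1.10, the Hspa1a ratios between 1.19 and 1.43 and between -1.35 and -0.72, and the Hspa1b ratios between 0.90 and 1.04 and between -1.65 and -0.92. The part of depth, of free RNA and of the few cells that carried most UMIs in these ratios was not tested.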

How the results depend on the processing

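No paired analysis was possible because each condition has 1 library. The median log2 ratio of the immediate early sum between the libraries (0.05) became -0.042 in thinned cells, -0.061 with all cells weighted alike and 0.41 over the 4 classes that Leiden clusters gave in both libraries. That of the heat shock sum (-0.28) became -0.21 at a 5% mitochondrial limit, -0.30 in thinned cells, -0.30 at doubled cut-offs, -0.11 by Leiden clusters, -0.48 with all cells weighted alike, -0.23 relative to the median gene and 0.023 without Dnajb1. The log2 span over classes of the immediate early sum (2.79) became 2.70 at the 5% limit, 2.97 in thinned cells and 3.37 without Jun, and that of the heat shock sum (2.11) 1.70 by Leiden clusters and 3.39 without Dnajb1. The mean log2 ratio by mitochondrial share of the immediate early sum (0.27) became -0.0092 in thinned cells, -0.081 with all cells weighted alike, -0.092 relative to the median gene, 0.35 without Jun and 0.42 at a 20% limit. That of the heat shock sum (0.78) became 0.51, 0.46, 0.42 and 1.29 under the first 4 of these settings, the last without Dnajb1. Over the 9 classes 1457 of 57123 gene ratios passed 2-fold, against 3960 at a minimum of 20 UMIs, 565 at 200 UMIs and 5495 at 1.5-fold. Of 530 alternative ratios of single members, 422 moved by less than their interval and 108 by more, none of those past 2-fold changed sign, and 56 of the others did. The causes were not tested. Depth limits T cells, where 5 members had under 50 UMIs, and small classes, where 1 cell can hold many UMIs of a member.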
